A study of Mus musculus with 24 samples.

Results

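The gained m6A peaks were 1557 of the 10811 peaks (14.4%) in the shFto list, each overlapped on its strand by at least 1 base of a peak in the Dac51 list and by no peak in the shNC list. They lay in 1399 genes. Seen from the Dac51 list, 1619 of its 9850 peaks overlapped a shFto peak and no shNC peak. All 3 lists came from B16-OVA cells, a mouse melanoma line of C57BL/6 background that carries ovalbumin. The shFto cells carried a hairpin against Fto and received DMSO. The Dac51 cells carried the control hairpin shNC and received 5 µM of the compound Dac51 for 48 h. The shNC cells carried the control hairpin and received DMSO. Each condition had 1 antibody library set against its input, so peak values carry no replicate error, and the depth of these libraries is unknown here. RNA-seq of 3 shFto and 3 shNC libraries and ATAC-seq of 3 shFto and 3 shNC libraries came from the same line with no Dac51 arm. The labels do not say which shFto hairpin line was used for these tumour cell libraries, nor whether replicates were separate cultures, so p-values measure the spread between these libraries only.

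N6-methyladenosine (m6A) is a methyl mark on adenosines inside messenger RNA, placed by a writer complex mostly in DRACH sequence contexts (D is A, G or T, R is A or G, H is A, C or T), removed by the demethylases FTO and ALKBH5, and bound by YTH-domain reader proteins. It is known to be dense in long exons and round stop codons and to influence splicing, export, translation and decay of the transcript. FTO also removes the methyl group from m6Am, the related mark on a transcript's first base beside the cap when that base is A, and m6A antibodies bind both marks.

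Because of that second target, the members that covered an annotated transcript start are shown by sequence. RefSeq promoter entries (GRCm38.p6, the build of the deposited mm10 coordinates) existed for the gene of 1210 members (77.7%), and 26 of these peaks (2.15%) covered an annotated start, against 79 peaks (1.51%) of those in all 3 lists. The first transcribed base was A in 9 of the 26, G in 12, T in 3 and C in 2, and A opened 34.4% of the 32851 starts in the table. Of the 12 members over a start with both fold enrichments at 2 or more, 5 began with A. Their windows run from 10 bases before the start, with the first transcribed base in capitals. They lie at chr4:96553632-96553661 (Cyp2j6, minus strand), chr15:81858307-81858336 (Tob2, minus), chr4:134315110-134315139 (Trim63, plus), chr1:59764269-59764298 (Bmpr2, plus) and chr2:29060253-29060282 (Ttf1, plus).
Cyp2j6: agcagattggAaactactctcagaagcttt
Tob2: gggtggggaaAgcagattcatgcgcagggt
Trim63: agaccaagacAgaagtcgggggtcagggga
Bmpr2: cccccccggcActctggatatgttttctcc
Ttf1: tccgcctaacAacacttccgggttggaaga

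The other 7 of these 12 started with G (Rap2b, 6430548M08Rik, Trmt61b, Krit1, Slc39a9 and Mnt) or T (Tbc1d15). The fold enrichment of antibody over input in these 12 peaks ran over 2.5 to 5.71 in the shFto list and over 2.0 to 13.4 in the Dac51 list. A DRACH match within both the peak and the first 50 transcribed bases was found in 7 of the 26 members, on the transcribed strand. Over all starts in the table, 54.4% had a match in the first 50 bases, whatever a peak would cover. Of these, 3 had both fold enrichments at 2 or more, and the match nearest the cap in each is shown with the DRACH letters in capitals. They lie at chr4:96553634-96553663 (Cyp2j6, minus strand), chr15:81858278-81858307 (Tob2, minus) and chr4:134315131-134315160 (Trim63, plus), with the motif's A at base 3, 34 and 26 of the transcript.
Cyp2j6 motif: ccagcagattggAAACTactctcagaagct
Tob2 motif: ttgctgagggtgAAACTtttcattgacttt
Trim63 motif: gtcaggggacgaAGACAaagaggatccgag

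One member carried the name of a microRNA gene. It spanned the Mir6363 hairpin exactly (chr16:50727132-50727245, plus strand), with a fold enrichment of 12.9 in the shFto list and 2.89 in the Dac51 list. Both calls were weak, at log10 p-values of -3.14 and -2.81. The gene had a count of 0 in all 6 tumour RNA libraries and was not tested. The mature sequence is given with its seed, bases 2 to 8, in capitals.
mmu-miR-6363: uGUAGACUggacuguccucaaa

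The gained peaks were short and of modest enrichment. Their median length was 181 bases, with quartiles of 149 and 241, against 412.5 bases for shFto peaks in all 3 lists and 121 bases for peaks in the shFto list only. Median fold enrichment was 3.13 in the shFto list (1.13 to 84.9) and 3.10 in the Dac51 list (1.15 to 83.8). The 6820 shFto peaks in all 3 lists had medians of 8.85 in shFto, 8.52 in Dac51 and 5.60 in shNC. These values are the peak caller's, they chose the members through the presence or absence of a call, and no test was made on them.

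In the peaks shared by all 3 lists, enrichment was also higher outside shNC: 5471 (80.2%) had a higher fold in shFto than in shNC, and 5378 (78.9%) a higher fold in Dac51 than in shNC. The median ratio of folds was 1.47 for shFto over shNC and 1.44 for Dac51 over shNC. The comparisons share the 1 shNC list. The shNC list was also the shortest, with 8479 peaks. With all 3 lists cut to their 8479 strongest peaks, 878 peaks were gained, against 1557 with the full lists. Beyond this count, the part that list length plays in the absence of a call over the gained peaks was not tested. The part of depth was not tested either. Absence from a single list was less common where that list was not shNC. Only 385 shFto peaks were shared with shNC and not with Dac51, and 180 Dac51 peaks were shared with shNC and not with shFto.

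Gained peaks were concentrated among the weaker shFto peaks, and their share was highest in the second weakest of 5 ranges of p-value. Among shFto peaks with a p-value above 1e-05, 472 of 2309 (20.4%) were gained, and 1406 were in the shFto list only. The share was 551 of 1760 (31.3%) at p-values of 1e-10 to 1e-05 and 412 of 1552 (26.5%) at 1e-20 to 1e-10. It was 114 of 1938 (5.88%) at 1e-50 to 1e-20. Of the 3252 strongest peaks, with p-values below 1e-50, 8 were gained (0.246%) and 3244 were in all 3 lists.

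**Figure D1:**
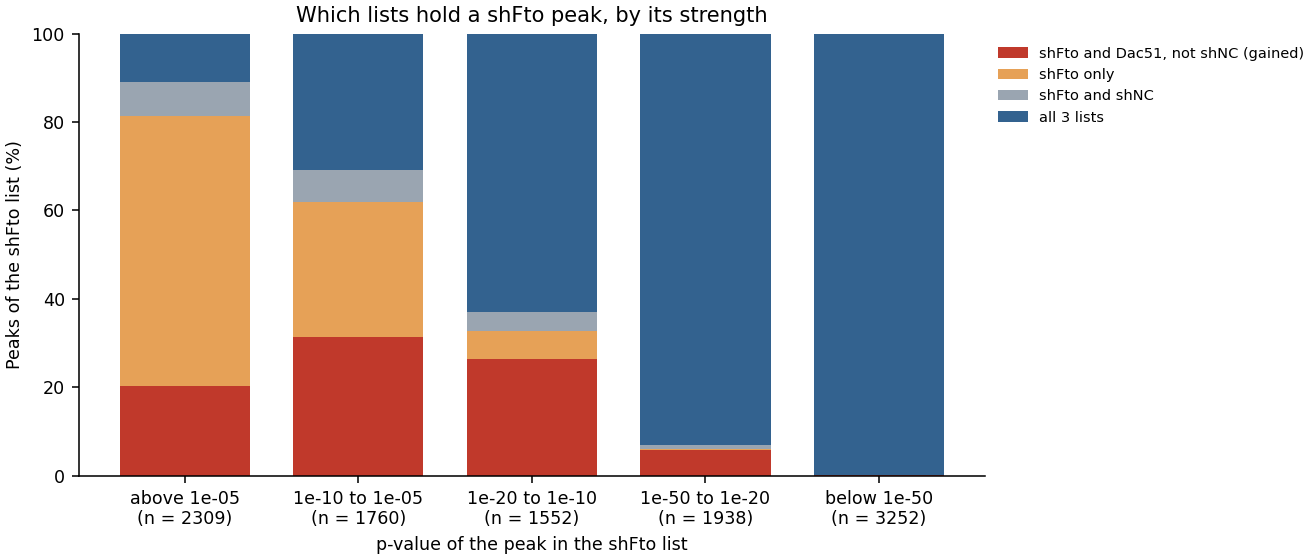
Stacked bars give the percent of shFto peaks in each range of p-value that were gained, in the shFto list only, shared with shNC, or in all 3 lists, with the number of peaks under each bar. Gained peaks made up 31.3% of the second range and 0.246% of the strongest.

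Members with a higher fold in the shFto list tended to have a higher fold in the Dac51 list, less closely than peaks in all 3 lists. The fold was higher in shFto for 771 members and higher in Dac51 for 779, and it was equal for 7. The folds were within 1.5 times of each other for 959 members (61.6%). Across members, Pearson's r of the log2 folds was 0.60 and Spearman's rho 0.654, as a description over 1557 points from 1 pair of libraries. The same values over peaks in all 3 lists were 0.80 and 0.811. Both folds reached 2 in 1126 members, 5 in 237 and 10 in 65.

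**Figure D2:**
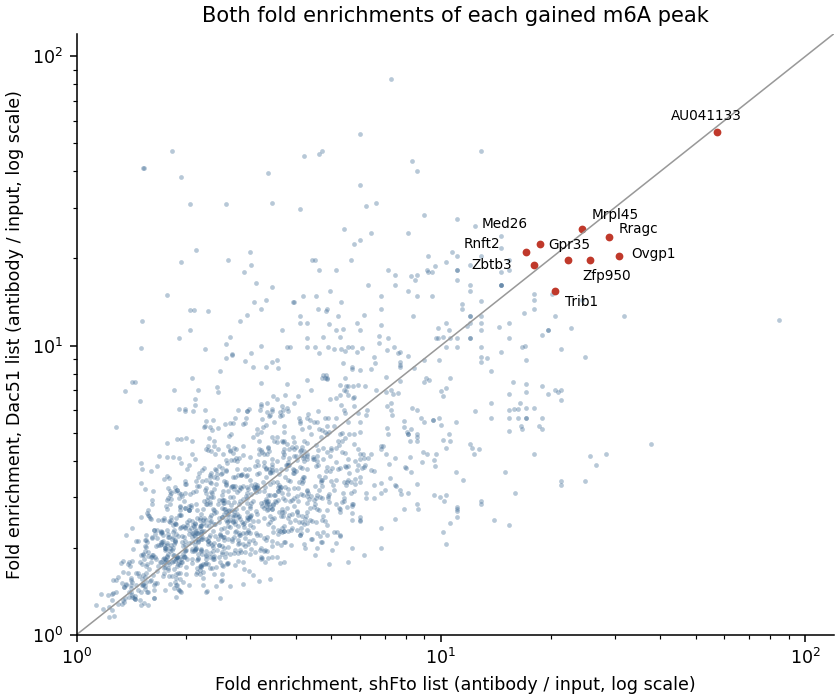
Each point is 1 of the 1557 gained peaks, with its fold enrichment in the shFto list on the horizontal axis and that of the overlapping Dac51 peak with it on the vertical axis, both on log scales; the line marks equal folds. Points lie on both sides of the line (771 below it, 779 above it), and the 10 peaks with the highest lower fold are in red with their genes.

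The members just inside the rule shared 1 base with a Dac51 peak (44 members, with none sharing 2 to 10 bases). Just outside it were 27 shFto peaks that shared 1 base with a shNC peak and so were counted in all 3 lists. Among the members in genes with a shNC peak elsewhere, the nearest lay 28 bases away. Within 50 bases were 20 members and within 100 bases 67.

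Ordered by the lower of the 2 folds, the highest member lay in AU041133 (chr10:82150881-82151210, plus strand), at 57.4 in shFto and 54.9 in Dac51. The RNA of this gene was low, at 3.51, 3.57 and 3.55 CPM (counts scaled to library size) in shFto libraries, against 1.59, 1.57 and 0.492 CPM in shNC libraries. Every shFto library was above every shNC library (1.53 ± 0.36 SE on the log2 scale, adjusted p = 0.00334 by edgeR).

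Rragc, which encodes a Rag GTPase that recruits the growth kinase complex mTORC1 to the lysosome, carried the member with the lowest shFto p-value of the 10 highest (chr4:123936728-123936997, plus strand), at 28.9 in shFto and 23.8 in Dac51 with log10 p-values of -59.9 and -54.9. It ran to the annotated end of the gene and lay 179 bases, from edge to edge, 3′ of a shNC peak with a fold of 2.88. Rragc RNA was 205, 217 and 185 CPM in shFto libraries, against 164, 155 and 154 CPM in shNC libraries. The groups did not overlap, and the rise was 0.36 ± 0.081 SE on the log2 scale (adjusted p = 0.00209 by edgeR).

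Mrpl45, a protein of the large mitochondrial ribosomal subunit, had a member at 24.4 in shFto and 25.3 in Dac51, 266 bases 3′ of a shNC peak with a fold of 3.92. Its RNA was 78.8, 82.9 and 82.4 CPM in shFto libraries, against 100, 87.2 and 107 CPM in shNC libraries. All 3 shFto values were lower (-0.27 ± 0.088 SE on the log2 scale, adjusted p = 0.0218 by edgeR). The call was lost without shFto replicate 1 (adjusted p = 0.112), shNC replicate 1 (0.0858) or shNC replicate 3 (0.102), and with scaling to library totals (0.0602).

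Trib1, a pseudokinase that brings the ubiquitin ligase COP1 to its targets, had a member at 20.6 in shFto and 15.5 in Dac51, 863 bases from its shNC peak. Trib1 RNA was 18.4, 16.7 and 19.5 CPM in shFto libraries, against 10.2, 10.5 and 12 CPM in shNC libraries. It rose by 0.75 ± 0.14 SE on the log2 scale (adjusted p = 0.000457 by edgeR), with no overlap between groups. Med26, a subunit of the Mediator complex, had folds of 18.7 in shFto and 22.5 in Dac51, in a peak 58 bases from a shNC peak that itself had a fold of 17.6. Its log10 p-values were -25.9 in shFto and -141 in Dac51, the lowest Dac51 p-value of the 10. The Dac51 values are those of the whole overlapping Dac51 peak, which shared 269 bases with this 389-base member. Its RNA averaged 15.3 ± 0.30 CPM in shFto and 18.3 ± 1.5 CPM in shNC (SD, n = 3 each; adjusted p = 0.126 by edgeR).

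The other 5 of the 10 highest lay in genes with mean RNA under 10 CPM and no shNC peak: Ovgp1 (oviductal glycoprotein), Zfp950 (a zinc finger protein), Gpr35 (a G protein-coupled receptor), Zbtb3 (a BTB zinc finger factor) and Rnft2 (a RING finger protein). Their lower folds ran over 17.1 to 20.4. The peak caller's log10 p-values for these members were weaker, at -8.44 to -4.62 in shFto and -7.86 to -5.17 in Dac51. None of these 5 genes passed the RNA test, with edgeR adjusted p-values of 0.292 to 0.836. Genes whose members had both folds at 5 or more had a median of 12.3 CPM in shFto and 10.5 CPM in shNC (not corrected for gene length), against 45.5 and 44.4 CPM over all tested genes with a gained peak.

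Gained peaks were spread over many genes. Of the 1399 genes, 1261 had 1 member, 120 had 2, 16 had 3 and 2 had 4. The genes with 4 were Cenpe, a kinesin of the kinetochore, and Pprc1, a coactivator related to PGC-1. The Pprc1 members lay within a span of 6884 bases, with folds of 2.54 to 6.06 in shFto and 3.41 to 9.79 in Dac51, and the gene had no shNC peak. The Cenpe members had folds of 1.82 to 2.68 in shFto and 2.05 to 2.49 in Dac51, and shNC peaks lay 2224 bases or more from each. Members of 1 gene share their transcript and are not independent.

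Cenpe RNA was 242, 239 and 215 CPM in shFto libraries, against 184, 201 and 155 CPM in shNC libraries, 0.36 ± 0.092 SE higher on the log2 scale (adjusted p = 0.00512 by edgeR). Pprc1 RNA was 155, 133 and 161 CPM in shFto libraries, against 187, 177 and 165 CPM in shNC libraries. It was lower in every shFto library (-0.23 ± 0.086 SE on the log2 scale, adjusted p = 0.0433 by edgeR). The Pprc1 call was lost in 5 of 10 other settings, among them leaving out shFto replicate 2 (adjusted p = 0.218), shFto replicate 1 (0.0971), shNC replicate 1 (0.204) or shNC replicate 2 (0.108).

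Most members stood in genes with a peak already called in control cells. In 758 genes, holding 872 members (56.0%), the shNC list had a peak elsewhere in the same gene, at a median of 568.5 bases. Of these members, 413 lay within 500 bases of it, 412 were 5′ of it and 460 were 3′ of it. The remaining 685 members lay in 641 genes with no shNC peak at all.

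The members lay toward the 3′ ends of genes, like other m6A peaks in these cells. Of 1548 members placed on a RefSeq gene, 764 (49.4%) had their centre in the last 10% of the gene span, introns included. The share was 44.2% for peaks in all 3 lists and 50.6% for peaks in the shFto list only. In the first 10% lay 93 members (6.01%), against 5.03% of the peaks in all 3 lists. The median distance from the peak's centre to the annotated end was 2497.5 bases for members and 3040 bases for peaks in all 3 lists. Protein-coding genes held 1523 members and long noncoding RNA genes 21. Most members (1414, or 90.8%) were 1 block, with no exon junction inside, and 887 were on the plus strand and 670 on the minus strand. By chromosome, gained peaks were between 11.2% (chromosome 15) and 18.0% (chromosome 17) of shFto peaks.

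**Figure D3:**
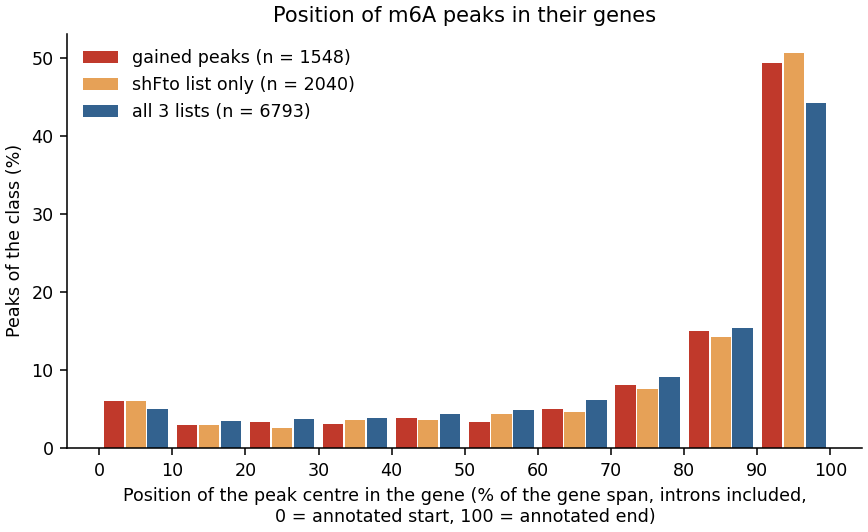
Bars give the percent of peaks whose centre lay in each 10% step of the gene span, from the annotated start (0) to the annotated end (100), for gained peaks, peaks in the shFto list only and peaks in all 3 lists. The last step held 49.4% of the gained peaks and 44.2% of those in all 3 lists.

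Before the RNA of these genes is described, the libraries were checked. Total counts were 11152404 to 19665589 in shFto and 13413981 to 17406625 in shNC. Fto RNA averaged 31.2 ± 2.7 CPM in shFto and 102.5 ± 9.3 CPM in shNC (SD, n = 3 each), a fall of 1.72 on the log2 scale (adjusted p = 1.6e-10 by edgeR), and Fto had no gained peak. Summed RNA of 7 melanocyte markers was 17700 to 18700 CPM in shFto and 14200 to 14800 CPM in shNC. Of 12 immune markers, 6 were at 0 in every library, among them Ptprc, Cd3e, Cd8a, Adgre1 and Csf1r, and the sum stayed at 1.25 to 1.43 CPM in shFto and 0.804 to 1.30 CPM in shNC. Fibroblast, endothelial and epithelial markers summed to 6.31 to 8.40 CPM in shFto and 10.8 to 13.9 CPM in shNC. None of these marker genes had a gained peak, and what part they had in the results below was not tested. In such bulk samples, fewer cells of a type and less RNA per cell cannot be told apart.

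RNA of genes with a gained peak rose more often than it fell in shFto cells. Of the 1399 genes, 1377 passed the expression filter (with 1535 of the members) and 22 did not. By edgeR at an adjusted p under 0.05, 292 (21.2%) were higher in shFto and 182 (13.2%) lower. Over all 11718 genes tested, 15.9% were higher and 16.9% lower, or 32.8% called in all, against 474 (34.4%) of the genes with a gained peak. Their median log2 fold change was 0.04, against -0.0028 over all genes tested. Changes of 2-fold or more were few, with 17 of these genes higher and 8 lower, against 164 and 217 of all genes.

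The counts rest partly on single libraries and on scaling. Without shFto replicate 1 they were 194 higher and 101 lower, and without shNC replicate 1 the lower count was 121. With scaling to library totals they were 363 higher and 134 lower, so that 73.0% of calls were higher, against 61.6% with TMM scaling. That scaling moved the median of all genes to 0.05 and the median of genes with a gained peak to 0.10, and 20.3% of all genes were then higher and 13.5% lower.

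Genes with a peak in the shFto list only leaned the same way. Those of them with no gained peak had 303 of 1423 higher (21.3%) and 181 lower (12.7%), with a median of 0.07. Genes with a peak in all 3 lists and no gained peak had 680 of 3946 higher (17.2%) and 659 lower (16.7%). Genes with a peak in the Dac51 list only and no gained peak had 147 of 906 higher (16.2%) and 161 lower (17.8%). Genes with a peak in the shNC list only and no gained peak had 104 of 566 higher (18.4%) and 104 lower (18.4%). In genes with no m6A peak in any list the order was turned round, with 619 of 4812 higher (12.9%) and 888 lower (18.5%). These sets differ in RNA level too, with median shFto CPM of 45.5 for gained, 37.2 for shFto only, 40.7 for all 3 lists and 28.0 for no peak. A gene with several peaks could be in several of the shFto-only, Dac51-only, shNC-only and all-3-lists sets. The differences between the sets were not tested. The part that a gene's RNA level in shFto or shNC plays in whether a peak is called there was not tested either.

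The counts leaned the same way with and without a shNC peak elsewhere in the gene. Of 622 tested genes with a gained peak and no shNC peak, 129 were higher and 84 lower, and of 755 with one, 163 were higher and 98 lower. Among the 221 tested genes whose members had both folds at 5 or more, 40 were higher and 21 lower, with a median log2 fold change of 0.13.

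**Figure D4:**
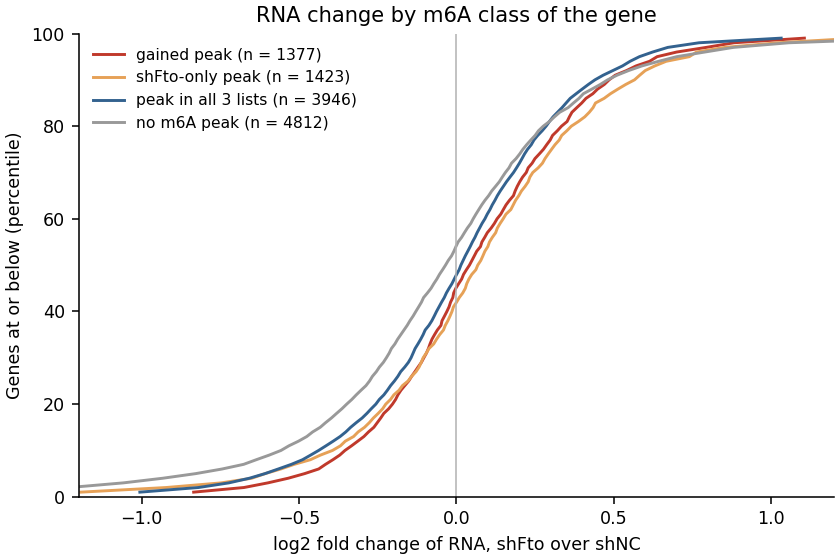
Lines give the percentiles (1 to 99, vertical axis) of the log2 fold change in RNA, shFto over shNC (horizontal axis), for genes with a gained peak and, among genes without one, those with a shFto-only peak, a peak in all 3 lists, or no m6A peak. A gene with both a shFto-only peak and a peak in all 3 lists is in both lines. The median was 0.04 for genes with a gained peak and 0.07 for those with a shFto-only peak.

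Among genes with a gained peak, a mean of at least 10 CPM and separate groups, the largest rise was that of Sema6d, a transmembrane semaphorin that guides growing axons and other migrating cells. Its RNA was 62.2, 58.4 and 64.2 CPM in shFto libraries, against 17.8, 19.9 and 15.4 CPM in shNC libraries. No shFto library came near the shNC range (1.80 ± 0.11 SE on the log2 scale, adjusted p = 4.95e-10 by edgeR). Its member (chr2:124664261-124664410, plus strand) had folds of 2.25 in shFto and 5.28 in Dac51 and lay 478 bases 5′ of a shNC peak with a fold of 8.37.

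The largest fall by the same criteria was that of Sema6a, a semaphorin of the same class. Its RNA was 15.0, 9.77 and 15.9 CPM in shFto libraries, against 52.3, 54.5 and 50.2 CPM in shNC libraries. The groups did not overlap (-1.92 ± 0.14 SE on the log2 scale, adjusted p = 3.47e-09 by edgeR). Its member had folds of 2.74 in shFto and 4.39 in Dac51, 179 bases from a shNC peak with a fold of 12.9. The pair moved in opposite directions, and both members lay near the 3′ end, at 99.4% of the gene span in Sema6d and 97.7% in Sema6a.

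Nr4a3, an orphan nuclear receptor of the early response, had 261, 237 and 293 CPM in shFto libraries, against 76.2, 78.7 and 73.2 CPM in shNC libraries (1.79 ± 0.088 SE on the log2 scale, adjusted p = 1.82e-11 by edgeR). Its member was 61 bases long and 179 bases from a shNC peak, with folds of 1.36 in shFto and 6.94 in Dac51. The log10 p-values were -3.98 in shFto and -28.8 in Dac51, where both Dac51 values are those of the whole overlapping peak. Hpse, the heparanase that cleaves heparan sulfate in the extracellular matrix, had 19.1, 22.8 and 18.2 CPM in shFto libraries, against 5.92, 6.22 and 5.83 CPM in shNC libraries (1.73 ± 0.15 SE on the log2 scale, adjusted p = 9.98e-08 by edgeR). It had no shNC peak, and its 390-base member near the gene's end had folds of 3.54 in shFto and 2.07 in Dac51.

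The other 5 of the 8 largest rises, with predicted genes (Gm and Rik symbols) left out, were Smad6 (described below), Fam49a, Pdpn (podoplanin, a membrane glycoprotein), Nudt12 (a hydrolase of NADH) and Bnc2 (a zinc finger protein linked to pigmentation). Their log2 fold changes were 1.06 to 1.60, with edgeR adjusted p-values of 4.11e-05 or less. Separate groups were a condition of the choice. In Bnc2 the member lay 208 bases from a shNC peak with a fold of 25.9, and its own folds were 5.80 in shFto and 3.33 in Dac51. Nudt12 had no shNC peak and folds of 5.46 in shFto and 3.82 in Dac51. The predicted gene 6430548M08Rik, whose member is among those over a start, also rose within that range (17.2, 24.0 and 18.6 CPM in shFto libraries, against 8.43, 8.54 and 8.43 CPM in shNC libraries, 1.23 ± 0.15 SE on the log2 scale, adjusted p = 7.59e-06 by edgeR).

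Among the falls, Gas7, an F-BAR protein of actin structures, had 22.8, 28.3 and 23.2 CPM in shFto libraries, against 65.8, 70.1 and 68.1 CPM in shNC libraries (-1.47 ± 0.10 SE on the log2 scale, adjusted p = 3.47e-09 by edgeR). It had no shNC peak, and its member had folds of 1.54 in shFto and 2.12 in Dac51. Rgs3, a regulator of G protein signalling, had 11.7, 10.9 and 14.4 CPM in shFto libraries, against 30.9, 28.1 and 37.6 CPM in shNC libraries (-1.37 ± 0.14 SE on the log2 scale, adjusted p = 7.26e-07 by edgeR). In both genes every shFto library was below every shNC library, as the choice required.

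The other 5 of the 8 largest falls were Ahnak (a giant scaffold protein), Nxn (nucleoredoxin, a thioredoxin-like protein), Agpat4 (a lysophosphatidic acid acyltransferase), Lrrc4b (a leucine-rich synaptic adhesion protein) and Rab3il1 (which acts on Rab3A). Their log2 fold changes were -0.89 to -0.76, with edgeR adjusted p-values of 1.33e-05 to 0.00161. Rab3il1 had the member with the highest folds of these, at 8.57 in shFto and 14.8 in Dac51. Nxn carried 2 members, 390 bases apart from start to start, and no shNC peak.

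**Figure D5:**
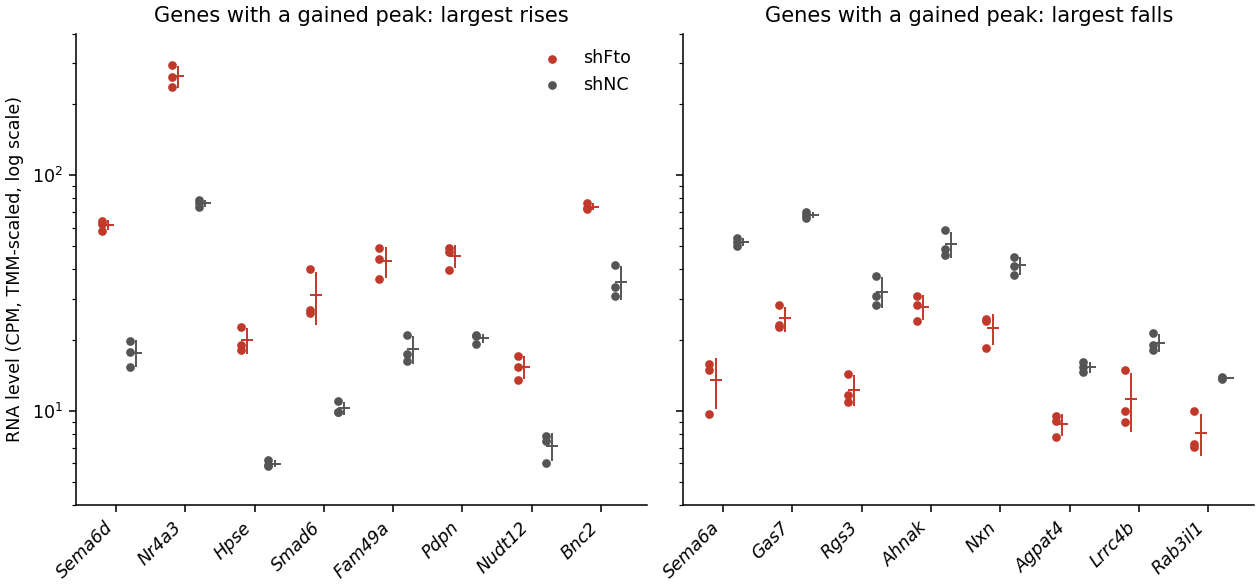
Points are the RNA levels of single libraries in CPM (log scale), shFto left of shNC for each gene, and the bar beside them is the mean with 1 SD (n = 3), for the 8 largest rises and the 8 largest falls among genes with a gained peak, a mean of at least 10 CPM and separate groups, with predicted genes (Gm and Rik symbols) left out. By this choice the shFto and shNC points do not overlap in any of the 16 genes. Sema6a has 9.77 to 15.9 CPM in shFto against 50.2 to 54.5 CPM in shNC.

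Genes were then grouped by lists of pathways. A gained peak was found in 1399 of the 6471 genes with any shFto peak (21.6%), and in 11.8% of all genes tested for RNA. Counts for each list are given over its genes in the table and over those with a shFto peak, and none was tested. Enzymes that add or remove methyl groups on histone lysines had the highest number, with a gained peak in 12 of 37 listed genes in the table, or of the 33 with a shFto peak (Kmt2a, Kmt2c, Kmt2d, Kmt2e, Setd1a, Setd1b, Setd2, Ash1l, Kdm2a, Kdm4c, Kdm5a and Phf2). Of these 12, 11 also had a shNC peak. By RNA 3 were higher and 2 lower, against 7 and 8 of all 37.

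Setd1a, which methylates histone H3 at lysine 4, had 177, 152 and 191 CPM in shFto libraries, against 226, 221 and 210 CPM in shNC libraries. It fell in shFto (-0.33 ± 0.087 SE on the log2 scale, adjusted p = 0.00604 by edgeR), with a member at 2.90 in shFto and 1.93 in Dac51. Kmt2d, another methyltransferase of that lysine, averaged 344.3 ± 28.8 CPM in shFto and 428 ± 45.3 CPM in shNC (SD, n = 3 each; adjusted p = 0.0126 by edgeR). Kmt2e, a SET-domain protein of the same family, averaged 100.1 ± 3.0 CPM in shFto and 81.7 ± 9.4 CPM in shNC (adjusted p = 0.0161 by edgeR). The Kmt2d call was lost without shFto replicate 2, shNC replicate 1 or shNC replicate 2 (adjusted p of 0.0577, 0.0791 and 0.0742), and the Kmt2e call without shNC replicate 1 or 3 (0.0915 and 0.0554).

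Among chromatin remodellers and acetyltransferases, 5 of 36 genes (26 with a shFto peak) had a gained peak (Chd4, Chd7, Chd9, Srcap and Brd2), and 1 was higher and 1 lower. Of the whole list, 5 genes were higher and 4 lower. Chd7, a chromodomain helicase, had 29.3, 27.1 and 31.8 CPM in shFto libraries, against 43.7, 52.5 and 43.3 CPM in shNC libraries (-0.66 ± 0.11 SE on the log2 scale, adjusted p = 0.000147 by edgeR). Its relative Chd9 had 121, 119 and 104 CPM in shFto libraries, against 82.3, 89.1 and 75.3 CPM in shNC libraries (0.47 ± 0.089 SE on the log2 scale, adjusted p = 0.000463 by edgeR). The groups were separate in both genes. Chd9 carried 2 members, at folds of 7.03 and 4.17 in shFto and 3.17 and 3.41 in Dac51, and Chd7 1 member, at 3.31 in shFto and 2.90 in Dac51 and 89 bases from a shNC peak. Chd4 did not pass (adjusted p = 0.176 by edgeR), but did without shNC replicate 3 (0.0374).

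In WNT and BMP/TGF-beta signalling, 7 of 43 genes (32 with a shFto peak) had a gained peak: the receptors Fzd1, Fzd6, Bmpr2 and Tgfbr1, the signal carrier Smad5, the inhibitor Smad6 and the kinase Gsk3b. Smad6, Bmpr2 and Gsk3b were higher, and the other 4 did not pass, with log2 fold changes of 0.12 to 0.21 and edgeR adjusted p-values of 0.0516 to 0.512. Of the whole list, 13 genes were higher and 7 lower. Smad6, which blocks BMP signalling inside the cell, had 26.9, 26.2 and 40.0 CPM in shFto libraries, against 9.95, 11.0 and 9.90 CPM in shNC libraries (1.60 ± 0.16 SE on the log2 scale, adjusted p = 4.43e-07 by edgeR). The centre of its member lay 442 bases from the annotated start, with folds of 12.9 in shFto and 12.7 in Dac51, and the gene had no shNC peak. Both calls of this member were weak, at log10 p-values of -3.47 in shFto and -3.56 in Dac51. Bmpr2, the type II BMP receptor whose start window is shown above, had 76.0, 79.7 and 65.4 CPM in shFto libraries, against 46.6, 45.0 and 37.0 CPM in shNC libraries.

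Bmpr2 rose by 0.78 ± 0.10 SE on the log2 scale (adjusted p = 1.77e-05 by edgeR), and its member covered the first 301 bases of the gene at folds of 5.14 in shFto and 2.07 in Dac51. Gsk3b, the kinase that marks β-catenin for destruction, had 123, 136 and 120 CPM in shFto libraries, against 81.1, 92.1 and 70.6 CPM in shNC libraries (0.63 ± 0.094 SE on the log2 scale, adjusted p = 5.16e-05 by edgeR). The groups of all 3 genes were separate. The Gsk3b member had low folds, at 1.45 in shFto and 1.36 in Dac51, with log10 p-values of -4.4 and -3.47. Smurf1, a ubiquitin ligase that targets SMAD proteins and 1 of 2 genes with a gained peak among 26 ubiquitin ligases of the HECT and RBR families (18 with a shFto peak), averaged 86.7 ± 2.9 CPM in shFto and 91.6 ± 10.8 CPM in shNC (SD, n = 3 each; adjusted p = 0.545 by edgeR). The other, Ube3a, averaged 91.9 ± 17.8 CPM in shFto and 76.2 ± 4.7 CPM in shNC (SD, n = 3 each; adjusted p = 0.0699 by edgeR), and passed without shFto replicate 3 (0.003). Of all these ubiquitin ligases, 6 were higher and 1 lower.

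In RAS, MAP kinase and PI3 kinase signalling, 7 of 41 genes (32 with a shFto peak) had a gained peak, among them Dusp6, Tsc1, Mtor, Rptor, Irs1 and Irs2, and 2 of the 7 were higher and 2 lower. Of the whole list, 16 genes were higher and 6 lower. Dusp6, a phosphatase that switches off MAP kinase signalling, averaged 125.8 ± 5.9 CPM in shFto and 102.2 ± 5.2 CPM in shNC (adjusted p = 0.00712 by edgeR). Rptor, the scaffold subunit of mTORC1, had 129, 123 and 142 CPM in shFto libraries, against 181, 178 and 167 CPM in shNC libraries (-0.42 ± 0.081 SE on the log2 scale, adjusted p = 0.000619 by edgeR). In both genes the groups were separate, and the kinase Mtor itself averaged 94.7 ± 7.7 CPM in shFto and 91.3 ± 7.3 CPM in shNC (adjusted p = 0.666 by edgeR).

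Of 26 glycolysis genes, 9 had a shFto peak and 3 a gained one: Aldoa (aldolase), Tpi1 (triose phosphate isomerase) and Hk2 (hexokinase 2). Their folds were 1.13, 1.26 and 1.94 in shFto and 1.27, 1.54 and 1.83 in Dac51, and the Aldoa member had the lowest shFto fold of all members. Aldoa had 1590, 1710 and 1600 CPM in shFto libraries, against 2040, 2230 and 2330 CPM in shNC libraries (-0.43 ± 0.086 SE on the log2 scale, adjusted p = 0.000891 by edgeR). Tpi1 averaged 823.2 ± 145 CPM in shFto and 1103 ± 196 CPM in shNC, with overlapping groups (adjusted p = 0.0111 by edgeR). That call was lost with DESeq2 (adjusted p = 0.117), without shFto replicate 1 (0.0607) and without shNC replicate 3 (0.084). Hk2 did not pass (adjusted p = 0.619 by edgeR), but did so as lower without shFto replicate 2 (0.0324). Of all 26 glycolysis genes 3 were higher and 15 lower, and 2 of the 15 had a gained peak.

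The m6A machinery had 3 genes with a gained peak, of 18 in the table and 12 with a shFto peak. They were 1110037F02Rik (Virma, a scaffold of the writer complex), Zc3h13 (a zinc finger protein of that complex) and Ythdc1 (the nuclear reader). 1110037F02Rik averaged 168.5 ± 13.6 CPM in shFto and 143.5 ± 7.8 CPM in shNC (adjusted p = 0.0385 by edgeR), a call lost without shFto replicate 1 or 2 or shNC replicate 1 or 3 (adjusted p of 0.0958 to 0.153). Ythdc1 and Zc3h13 had edgeR adjusted p-values of 0.20 and 0.79. Of the whole m6A list, 2 genes were higher and 5 lower.

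Other lists had few members. Among pigment and melanocyte genes 1 of 18 (11 with a shFto peak) had a gained peak, Mreg (melanoregulin, which acts in melanosome transfer), with 2 members and mean RNA of 69.5 ± 3.0 CPM in shFto and 74.9 ± 7.3 CPM in shNC (adjusted p = 0.387 by edgeR). In antigen presentation and interferon response it was 2 of 24 (11 with a shFto peak), the peptide transporter subunit Tap2 and the signal carrier Stat2. Tap2 averaged 10.0 ± 1.8 CPM in shFto and 6.57 ± 1.8 CPM in shNC (adjusted p = 0.0326 by edgeR), a call lost without shFto replicate 2 (0.0654), shFto replicate 3 (0.099) or shNC replicate 3 (0.145). Stat2 did not pass (adjusted p = 0.588 by edgeR). In cell cycle and DNA damage response it was 2 of 31 (13 with a shFto peak), the recombination protein Brca2 and Trp53bp1, a protein recruited to DNA breaks. Brca2 carried 3 members and averaged 49.0 ± 3.4 CPM in shFto and 35.3 ± 2.5 CPM in shNC (SD, n = 3 each; adjusted p = 0.00145 by edgeR). Over the whole lists, 10 pigment and melanocyte genes were higher and 0 lower. The counts were 7 and 4 in antigen presentation and interferon response, and 13 and 3 in cell cycle and DNA damage response.

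None of the 13 AP-1 and C/EBP transcription factor genes, 10 of them with a shFto peak, had a gained one. Jun, Junb and Cebpb carried peaks in all 3 lists instead. At the main Jun peak, of 746 bases, the folds were 80.2 in shFto and 43.6 in shNC. The Dac51 fold of 103 was that of a 2472-base peak spanning both Jun peaks of the other lists. At the main Cebpb peak the folds were 28.0 in shFto, 32.7 in Dac51 and 19.0 in shNC. Cebpb also had a peak in the shFto list only, with a fold of 2.11. Junb had 2 shared peaks, with folds of 19.0 in shFto, 16.2 in Dac51 and 12 in shNC at the stronger one. Jun RNA fell in shFto (53.2 ± 6.8 CPM, against 80.3 ± 6.7 CPM in shNC, SD, n = 3 each; adjusted p = 0.000194 by edgeR). Junb and Cebpb did not pass (adjusted p = 0.583 by edgeR and 0.107), though Cebpb did as lower without shFto replicate 3 (0.0161) or shNC replicate 2 (0.0351). Of the 13 genes, 1 was higher and 3 lower.

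Open chromatin over the gained peaks was measured in the same cell line. An ATAC-seq peak lay over 7.32%, 7.13% and 7.45% of the members in the shFto libraries, against 7.84%, 7.58% and 7.39% in the shNC libraries. The groups overlapped. The means were 7.30% ± 0.16 in shFto and 7.60% ± 0.23 in shNC (SD, n = 3 each), a difference of -0.30 percentage points (exact two-sided permutation test over libraries, p = 0.2, where 3 against 3 cannot go below 0.1). Peaks in all 3 m6A lists gave 7.47% in shFto and 8.05% in shNC. The ATAC-seq lists were longer in shNC, at 74551 to 81944 peaks, against 67427 to 72055 in shFto. With lists cut to equal length, the difference over members was -0.13 percentage points (exact permutation test, p = 0.4).

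Of the members, 97 were under an ATAC-seq peak in all 6 libraries and 1423 in none. Cover in all 6 libraries was commonest near gene starts, where 49 of the 93 members in the first 10% of the gene had it, against 21 of the 764 in the last 10%. Only 5 members were covered in every library of 1 group and none of the other. Of these, 1 was covered in the 3 shFto libraries, and 4, in Cox19, Peak1, Mnt and Smc6, were covered in the 3 shNC libraries. These counts used the full ATAC-seq lists, which were longer in shNC, and were not made over all shFto peaks. The genes named were chosen after their values were seen.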

How the data were processed

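Per the labels, m6A peaks were called with exomePeak, from 1 antibody library and its input for each condition. Each deposited list holds the blocks of a peak, its p-value, a ratio called fold enrichment (antibody to input), and scores that are the log10 of the p-value and of the false discovery rate. The deposited ATAC-seq files list the peaks of 1 library each, with a fold ratio, a score and -log10 p and q values. The deposited RNA table holds raw counts per gene symbol, per the file headers. Per the submitters' processing notes, the tools were MACS2 2.1.3, STAR 2.7.0f, Bowtie2 2.3.5, Trim Galore 0.6.0, Picard and deepTools, and the build mm10, with no roles given. The counting tool, strand setting and peak thresholds are not given in the sources used here.

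Peaks overlapped where their blocks shared at least 1 base on 1 strand. Dac51 values of a member are those of the whole overlapping Dac51 peak, or of the one with the highest fold where several overlapped. That Dac51 peak could extend past the member and was not required to miss the shNC peaks. The RNA test was the quasi-likelihood one of edgeR 4.0.16 (R 4.3.3) after TMM scaling and filterByExpr, and p-values were adjusted by Benjamini-Hochberg over all 11718 genes, with a threshold of 0.05. CPM are TMM-scaled. A gene was assigned by the symbol its peak carries. ATAC-seq shares were compared by exact permutation over libraries. The overlap and count steps were tested on simulated data. Python 3.11.15, pandas 2.3.3, NumPy 2.4.6, SciPy 1.17.1 and Matplotlib 3.10.9 did the rest, and gene spans and sequences came from RefSeq (GRCm38.p6).

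The members, the 11 gene lists and the tests were chosen with earlier results of these data known. Named genes were Jun, Junb and Cebpb, the 10 members with the largest lower fold, and the 8 largest rises and falls with an adjusted p under 0.05, at least 10 CPM, separate groups and no predicted (Gm, Rik) symbol. Up to 3 genes of each list, by smallest adjusted p, and those with the most members were added. The sequence windows, planned round motifs in those peaks, were taken at gene starts instead, because no genome was used here. The T cell libraries were not used here, and a few items are not reported here. Alternatives were DESeq2 1.42.0, library totals, no filter, a replicate block, each replicate left out, and other overlap rules.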

Additional observations from a re-analysis of the deposited data

How the results depend on the processing

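The number of gained peaks was 1557 and stayed between 1126 and 1557 with a larger overlap required, with strand ignored, with introns counted and with both folds at least 2. It was 638 with a log10 false discovery rate of -5 or under in both lists, 878 with all lists cut to the 8479 strongest peaks, and 685 in genes with no shNC peak. Members more than 100 bases from any shNC peak of the gene that shared more than 10 bases with Dac51, a rule chosen after seeing the data, numbered 1450, and 279 of their 1297 tested genes were higher and 169 lower. Leaving out each replicate gave 194 to 330 genes higher and 101 to 224 lower, and medians of 0.03 to 0.06. DESeq2 gave 278 higher and 166 lower, and no expression filter 315 and 181. The median was 0.10 with library totals. The same replicate numbers did not pair the samples (correlations of 0.014, 0.037 and -0.017), and with a replicate block the counts were 288 higher and 179 lower, with an ATAC-seq difference of -0.30. Other ATAC-seq settings gave differences of -0.41 to -0.13 percentage points and exact p-values of 0.2 to 0.5. With 1 library left out the exact test cannot go below 0.2, and with the replicate block it cannot go below 0.25. Of 550 combinations of a setting and the 55 genes that the naming rule chose, 509 kept their side of the threshold and their sign, and 10, in 8 genes that did not pass, changed sign without passing. Another 24 lost the call and 7 gained it, in 11 genes given above, and 0 called values turned round. The cause of these shifts was not tested. The share of peaks with a DRACH motif was not run, as no genome of the build was used here. With 1 antibody library per condition, an m6A difference has no replicate check, and peaks of low strength are limited by an unknown depth.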

Other observations

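Genes named Zfp, mostly zinc finger proteins, were 74 of the 1399 genes with a gained peak, against 279 of the 6471 genes with any shFto peak; this group was chosen after its values were seen and was not tested. Of the 16 genes with 3 members each, the following 3 were likewise chosen after their values were seen. Ranbp2, a giant nucleoporin, had 222, 226 and 205 CPM in shFto libraries, against 149, 160 and 135 CPM in shNC libraries, with separate groups (0.56 ± 0.083 SE on the log2 scale, adjusted p = 5.17e-05 by edgeR). Slk, a serine/threonine kinase, averaged 222.7 ± 10.3 CPM in shFto and 169.2 ± 13.5 CPM in shNC (SD, n = 3 each; adjusted p = 0.00109 by edgeR), and Fat1, a giant cadherin, averaged 260.4 ± 5.6 CPM in shFto and 247 ± 29.7 CPM in shNC (adjusted p = 0.536 by edgeR).

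Among genes with a member over their annotated start, Ybx1, a cold-shock RNA-binding protein, had 1730, 1550 and 1960 CPM in shFto libraries, against 2250, 2130 and 2230 CPM in shNC libraries (-0.33 ± 0.093 SE on the log2 scale, adjusted p = 0.00896 by edgeR). The groups were separate. The member had low folds, at 1.41 in shFto and 1.57 in Dac51, with log10 p-values of -14.7 and -30.2.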
